A study of Papio anubis and Macaca mulatta with 6 samples.

Results

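The genes described here are 7 genes of RNA-binding proteins, NANOS1, NANOS2, NANOS3, DAZL, BOLL, DND1 and PUM2, which were looked up by symbol among the 34178 genes listed for the baboon and the 21356 listed for the rhesus monkey. All 7 symbols were listed in both species, so that 7 of 34178 and 7 of 21356 genes are followed. Their unique molecular identifiers (UMIs, each standing for 1 captured transcript) were counted in germ cells and in somatic cells of the testis, in each species alone. A germ cell was a barcode with at least 1000 UMIs and 200 detected genes in which at least 2 of the 6 germline genes MAEL, TDRD1, TEX15, SMC1B, MAGEB2 and SOHLH1 were detected. A somatic cell had the same depth and none of them, and cells with exactly 1 belonged to neither class.

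NANOS proteins bind target transcripts together with PUMILIO proteins such as PUM2 and bring in the CCR4-NOT deadenylase, which shortens the poly(A) tail. DAZL and BOLL belong to the DAZ family, whose members bind the 3′ untranslated regions of germline transcripts and mostly favour their translation, and DND1 works with NANOS proteins on shared targets. In mouse, Nanos2 is known for holding spermatogonia in the undifferentiated state, Nanos3 and Dnd1 for the survival of primordial germ cells, Dazl for the entry into gametogenesis and Boll, the oldest member of its family, for the development of spermatids.

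Testis cells of 2 immature baboons and 2 immature rhesus monkeys were captured without selection after a digestion with collagenase IV and trypsin. The tissue came from necropsy of animals euthanized for an unrelated reason, and no treatment of them is named. Baboon 1 gave the libraries 1A and 1B, baboon 2 and rhesus 1 gave 1 library each, and rhesus 2 gave the libraries 2A and 2B. The 3′ chemistry was version 3 for baboon 2 and version 2 for the other animals, so that the 2 baboons differ in chemistry as well. The sources disagree on age, since newborn and 26 months are given to the baboons in one and to the rhesus monkeys in the other, with 15 and 20 months for the other species, and no age was used.

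The 6 libraries held 16875294 to 49803025 UMIs and 5021 to 10400 cells of at least 1000 UMIs. In the baboon, 270 of 21692 cells were germ cells (71, 35 and 164 in 1A, 1B and baboon 2), and in the rhesus monkey 165 of 22632 (137, 15 and 13 in rhesus 1, 2A and 2B). The median depth was 12690 UMIs in baboon germ cells against 1989 in somatic cells, and 5159 against 1608 in the rhesus monkey. Libraries of the version 2 chemistry shared 37 to 136 cell barcodes in pairs, against 40.1 to 129 by chance, and doublets were kept. DDX4, a germline RNA helicase outside the gate, stood at 119 counts per 1000000 UMIs (CPM) in the germ cells of baboon 1 and 77.9 in baboon 2, against 1.78 and 1.81 in somatic cells, and at 25.7 and 45.1 CPM against 0.796 and 0.0884 in the rhesus monkeys.

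The label of germ cells held less well at the edge of the gate. At least 1 of 7 further germline genes (DDX4, PIWIL2, MOV10L1, RNF17, ASZ1, TDRD9 and MORC1, the last not looked up in the rhesus monkey) was detected in 183 of 270 baboon germ cells (67.8%) and in 83 of 165 rhesus germ cells (50.3%), against 1.88% and 0.247% of somatic cells. The baboon cells with 2 gate genes had such a gene in 38 of 116 cases (32.8%), those with 3 in 23 of 30 (76.7%) and those with 6 in 39 of 39. TEX15 was the gene detected in 2898 of the 3102 baboon cells with exactly 1 gate gene. At least 3 Sertoli cell genes were detected in 139 baboon germ cells (51.5%) and in 32 rhesus germ cells (19.4%), against 38.6% and 18.3% of somatic cells. All 7 genes of the Sertoli list (SOX9, DHH, GATM, CLDN11, INHA, FATE1 and WT1) were present in the summed germ cells of every animal, from 11.02 to 298 CPM in the baboons and from 2.15 to 315 CPM in the rhesus monkeys. In Sertoli-gated cells they stood at 50.04 to 778 CPM and at 7.68 to 2190 CPM, and their part in the germ cell values was not tested. Levels in germ cells with at least 3 gate genes and in those with fewer than 3 Sertoli genes are given with the levels by gate genes.

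The genes lie on different chromosomes apart from NANOS2 and NANOS3, and their sequences are shown here from the rhesus genome Mmul_10, to which the rhesus reads were aligned, with gene models of RefSeq. In that build NANOS1 lies at chr9:119508283-119510769 on the plus strand, NANOS2 at chr19:45999234-46000873 on the minus strand, NANOS3 at chr19:13466053-13482334 on the plus strand, DAZL at chr2:31065989-31084374 on the plus strand, BOLL at chr12:84811641-84873169 on the minus strand, DND1 at chr6:138052700-138055648 on the minus strand and PUM2 at chr13:88652492-88757647 on the plus strand. In the baboon build Panubis1.0 they lie on chromosomes 11, 20, 20, 2, 10, 5 and 14 in the same order. NANOS1 and NANOS2 have a single exon. In the RefSeq model of the rhesus, NANOS3 holds the microRNA genes MIR181C and MIR181D on its own strand, and BOLL overlaps the non-coding LOC106997074 on the other strand. In the baboon DND1 overlaps WDR55 at 1 end. Their strands were not compared there, and the part of this overlap in the counts was not tested.

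The promoters of 4 genes that were higher in germ cells are given because they differ most in CpG content, each as 250 bases before and 50 from the start of the RefSeq gene, 5′ to 3′ on the strand of the gene, with CpG pairs in capitals. The windows are chr19:46000824-46001123 for NANOS2, chr19:13465803-13466102 for NANOS3, chr2:31065739-31066038 for DAZL and chr6:138055599-138055898 for DND1.
NANOS2: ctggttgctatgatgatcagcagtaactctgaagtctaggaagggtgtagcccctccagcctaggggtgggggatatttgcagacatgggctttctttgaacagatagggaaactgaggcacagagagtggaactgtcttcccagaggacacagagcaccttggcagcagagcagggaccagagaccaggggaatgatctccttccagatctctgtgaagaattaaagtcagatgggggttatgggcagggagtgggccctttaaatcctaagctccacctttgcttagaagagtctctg
NANOS3: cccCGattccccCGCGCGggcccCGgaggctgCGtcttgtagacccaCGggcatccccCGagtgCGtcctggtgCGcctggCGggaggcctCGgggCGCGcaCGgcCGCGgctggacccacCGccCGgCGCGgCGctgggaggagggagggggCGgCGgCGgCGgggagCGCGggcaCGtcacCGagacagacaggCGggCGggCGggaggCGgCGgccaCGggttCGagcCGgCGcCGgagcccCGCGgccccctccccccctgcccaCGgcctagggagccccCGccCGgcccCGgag
DAZL: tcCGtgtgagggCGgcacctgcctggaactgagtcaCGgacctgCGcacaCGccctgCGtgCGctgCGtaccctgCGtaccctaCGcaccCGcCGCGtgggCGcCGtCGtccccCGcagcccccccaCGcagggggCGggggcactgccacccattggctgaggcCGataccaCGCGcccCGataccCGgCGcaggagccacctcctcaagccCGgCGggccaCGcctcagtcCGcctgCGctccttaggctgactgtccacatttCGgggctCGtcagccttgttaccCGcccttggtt
DND1: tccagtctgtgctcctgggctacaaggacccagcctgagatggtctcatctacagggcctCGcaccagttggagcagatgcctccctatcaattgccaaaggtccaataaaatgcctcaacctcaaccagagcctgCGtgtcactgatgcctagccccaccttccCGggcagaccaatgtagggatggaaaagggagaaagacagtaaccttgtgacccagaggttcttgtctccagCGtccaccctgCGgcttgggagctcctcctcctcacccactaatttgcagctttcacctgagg

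NANOS2 held 0 CpG pairs in this window and DND1 5, while NANOS3 held 46 and DAZL 33. The median of 20769 promoters of the same length was 16. The other 3 genes held 57 (NANOS1), 29 (BOLL) and 38 (PUM2), and in NANOS1 and NANOS3 more CpG pairs were found than in 99.6% and 96.5% of promoters. The GC box GGGCGG, searched on both strands, was present in 5 of the 7 windows (NANOS1, NANOS3, DAZL, BOLL and PUM2) and in 48.5% of all promoters. The E-box CACGTG was present in PUM2 alone and in 7.72% of all promoters. A match of letters is a description of the window and not a binding site.

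The element TGTANATA, to which PUMILIO proteins bind, was searched on the sense strand of the RefSeq transcripts of the rhesus because PUM2 and the NANOS proteins act through it. It was present in the 3′ untranslated region of 2 of the 7 genes, once in BOLL and at 2 places in PUM2 itself. In BOLL 2 of 4 transcripts held it there, and in PUM2 12 of 12. Anywhere in the transcript, it was found in 28.9% of 67963 coding transcripts. That share covers whole transcripts and not genes by their 3′ region, so the 2 are not comparable. Each site is given with its flanks, with the element in capitals, from chr12:84811839-84811868 (minus strand) for BOLL and chr13:88755216-88755245 and chr13:88755475-88755504 (plus strand) for PUM2.
BOLL: agttttaggaaTGTAAATAgattaagtccc
PUM2, first site: gtttatagagaTGTATATAgaattatagtc
PUM2, second site: tacagaaatatTGTATATActtacatatgt

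NANOS3, DAZL, BOLL, DND1 and PUM2 had UMIs in the germ cells of all 4 animals, and NANOS1 and NANOS2 in those of both baboons. With edgeR's quasi-likelihood test on UMI sums of the 2 animals of a species, 4 of 7 members were higher in baboon germ cells than in somatic cells (NANOS2, NANOS3, BOLL and DND1), where 8.72% of the 16450 genes tested differed and 7.67% were higher. Of the 4 members tested in the rhesus monkey 3 were higher (NANOS3, DAZL and DND1), where 23.8% of 13060 genes differed and 12.2% were higher, and NANOS1, NANOS2 and BOLL did not pass the filter on low counts. No member was lower, where 1.05% of baboon genes and 11.6% of rhesus genes were. NANOS2 and BOLL in the baboon and DAZL in the rhesus monkey passed that filter through their germ cell sums alone. For them only a higher level in germ cells could be called, so these counts and the medians that follow are partly set by the filter. The median log2 fold change was 4.23 over the 7 members in the baboon, beside -0.12 over all genes tested, and 4.09 over the 4 members tested in the rhesus monkey, beside -0.14.

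**Figure D1:**
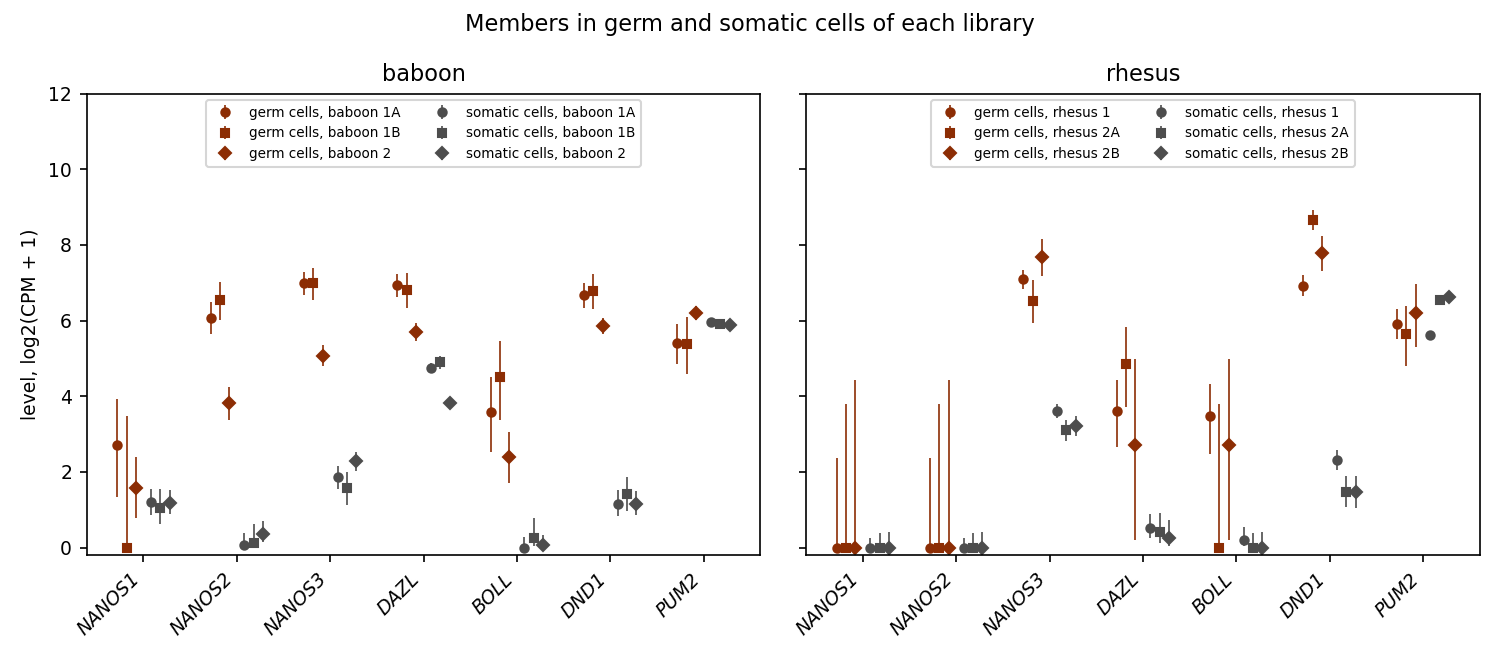
Level of each member as log2(CPM + 1) in the summed germ cells (brown) and somatic cells (grey) of each library, with exact Poisson 95% intervals for counting error. NANOS3 and DND1 stand apart between the classes in all 6 libraries, DAZL does so by less in the baboon, PUM2 overlaps, and NANOS1 and NANOS2 are at 0 in the rhesus monkey.

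NANOS2 had the largest log2 fold change of the 7 members in the fit over both baboons, while in baboon 2 alone its ratio lay beside those of BOLL (89.6, 13.5 to 3806 by counting error alone) and DND1 (46.1, 30.4 to 72.6), with overlapping intervals. Its level in germ cells was 66.5 CPM in library 1A (48 UMIs), 92.7 CPM in 1B (34 UMIs) and 13.1 CPM in baboon 2 (40 UMIs), against 0.0559, 0.0976 and 0.285 CPM in somatic cells (1, 1 and 6 UMIs). Both libraries of baboon 1 were above baboon 2, and germ and somatic cells did not overlap. Its log2 fold change was 7.49 ± 1.05 (SE, 2 animals, edgeR, adjusted p = 0.00634). In baboon 1 the ratio of 82 to 2 UMIs came to 1059 (284 to 8894 by counting error alone), and in baboon 2 that of 40 to 6 UMIs to 45.9 (19.4 to 133). NANOS2 UMIs were found in 30 of 106 germ cells of baboon 1 (28.3%) and 14 of 164 of baboon 2 (8.54%), with up to 11 in a cell. No NANOS2 UMI was found in 214 endothelial cells of the baboons, whose median depth was 3763.5 UMIs.

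NANOS3 was higher in germ cells of both species. In germ cells it stood at 126 CPM in 1A, 125 in 1B and 32.7 in baboon 2, and at 135, 91.4 and 205 CPM in rhesus 1, 2A and 2B. In somatic cells it stood at 2.63, 1.95 and 3.85 CPM in the baboon libraries and at 11.2, 7.58 and 8.27 CPM in the rhesus libraries, so that every germ value was above every somatic value of its species. The log2 fold change was 4.23 ± 0.68 in the baboon (adjusted p = 0.0089, edgeR), and 3.31 ± 0.41 for the rhesus monkey (adjusted p = 0.00116, edgeR). Among somatic cells of the rhesus monkeys, Sertoli-gated cells had 18.0 and 16.1 CPM and stroma-gated cells 4.95 and 5.08 CPM, a ratio of 3.64 (2.37 to 5.64) in rhesus 1 and 3.16 (2.18 to 4.61) in rhesus 2 with counting intervals. Barcodes under 100 UMIs, which hold mostly free RNA, had 16.1, 9.13 and 8.26 CPM in the rhesus libraries. NANOS3 UMIs were found in 29.3% of baboon and 25.5% of rhesus germ cells, and in 0.935% of baboon and 1.496% of rhesus endothelial cells (median depths 3763.5 and 3107.5 UMIs). After thinning each cell to 1000 UMIs the share was 7.04% and 12.1% of germ cells, against 0.251% and 0.891% of somatic cells. Its transcripts were uneven among germ cells, since 25 of the 91 UMIs of library 1A came from a single cell.

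NANOS1, the member of the NANOS family known outside the germline, did not follow the other 2. Germ cells of baboon 1 and baboon 2 held 4 and 6 UMIs (3.67 and 1.96 CPM), against 1.21 and 1.28 CPM in somatic cells, and the log2 fold change of 0.68 ± 0.83 did not pass the test (adjusted p = 0.681, edgeR). Its highest well-covered level was in stroma-gated cells, at 15.4 CPM in baboon 1 (27 UMIs) and 3.00 CPM in baboon 2 (19 UMIs), against 0.134 and 0.304 CPM in Sertoli-gated cells (2 and 3 UMIs). The ratio of Sertoli-gated to stroma-gated cells was 0.00871 (0.00100 to 0.0347) in baboon 1 and 0.101 (0.0192 to 0.344) in baboon 2, with counting intervals.

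NANOS1 and NANOS2 of the rhesus monkey were listed at 0 in every barcode of every library, so no fold is given. Of the 21356 genes listed, 2340 (10.96%) were at 0 in the same way. RefSeq models of both genes have a 3′ untranslated region, of 1581 bases in NANOS1 and 1058 bases in NANOS2. The gene models by which the rhesus reads were counted carry Ensembl identifiers and were not analysed here, and the part of the gene model in these zeros was not tested.

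DAZL had higher CPM in the baboon than in the rhesus monkey in germ as well as somatic cells, by annotations that differ. In baboon germ cells it stood at 122, 112 and 51.0 CPM in 1A, 1B and baboon 2, and in somatic cells at 25.9, 28.7 and 13.1 CPM, so that germ and somatic libraries did not overlap. The log2 fold change of 1.61 ± 0.57 did not pass the test without the animal as a term (adjusted p = 0.147, edgeR) and passed with the animal as a block (1.65 ± 0.40, adjusted p = 0.0143, edgeR). It also passed in edgeR with libraries as samples (1.57, adjusted p = 0.0318), with at least 3 gate genes (1.98, adjusted p = 0.0285), with TEX15 left out of the gate (1.94, adjusted p = 0.0312) and without germ cells with 3 Sertoli genes (2.05, adjusted p = 0.0144). Libraries 1A and 1B come from the same animal, so libraries as samples are not independent replicates. In all DAZL passed in 5 of 12 alternatives with a test. It did not pass with DESeq2 (adjusted p = 0.0757), nor in edgeR without the filter on low counts (0.0625) or with upper-quartile scaling (0.111). Nor did it pass in edgeR with a UMI minimum of 500 or 2000 (adjusted p = 0.159 and 0.161). Without library 1A or 1B it did not pass either (adjusted p = 0.230 and 0.135, edgeR). In the rhesus monkeys germ cells had 11.2, 28.1 and 5.53 CPM in rhesus 1, 2A and 2B (10, 8 and 1 UMIs) against 0.425, 0.341 and 0.184 CPM, with a log2 fold change of 4.88 ± 0.87 (adjusted p = 0.00472, edgeR). Differences between the species in level or in fold were not tested, since the annotations differ.

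The somatic DAZL counts of the baboons were not even among cell types. Sertoli-gated cells had 30.2 CPM in baboon 1 (450 UMIs) and 18.9 CPM in baboon 2 (187 UMIs), stroma-gated cells had 5.14 and 4.11 CPM (9 and 26 UMIs), and endothelial cells had 0 and 1 UMIs. The ratio of Sertoli-gated to stroma-gated cells was 5.88 (3.07 to 12.9) in baboon 1 and 4.61 (3.05 to 7.25) in baboon 2 with counting intervals. DAZL UMIs were found in 8.79% of 6668 Sertoli-gated cells (median 2826 UMIs) and in 0.856% of 3974 stroma-gated cells (median 1728.5 UMIs), and after thinning in 2.83% and 0.252%. Of 214 endothelial cells 0.467% held one. Barcodes under 100 UMIs had 37.8, 37.3 and 19.04 CPM of DAZL in 1A, 1B and baboon 2, which is at or above the level of Sertoli-gated cells. DDX4 in the same Sertoli-gated cells was at 1.88 and 1.62 CPM. In the rhesus monkeys DAZL was at 1.67 and 0.226 CPM in Sertoli-gated cells (5 and 1 UMIs). The part of free RNA in the baboon values was not tested.

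BOLL was rare, with most of its UMIs in germ cells. It had 8, 8 and 13 UMIs in germ cells of 1A, 1B and baboon 2 (11.1, 21.8 and 4.25 CPM) and 0, 2 and 1 UMIs in the 18320 somatic cells. Its log2 fold change was 6.58 ± 1.08 (adjusted p = 0.00998, edgeR). The rhesus germ cells held 9 UMIs in rhesus 1 (10.1 CPM), 0 in 2A and 1 in 2B, against 3 UMIs in somatic cells of rhesus 1 and 0 in rhesus 2. In rhesus 1 the ratio was 63.1 (15.8 to 363, counting error alone).

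DND1 was higher in germ cells of all libraries. Its level was 101, 109 and 56.9 CPM in germ cells of 1A, 1B and baboon 2 and 121, 404 and 221 CPM in rhesus 1, 2A and 2B, with both libraries of rhesus 2 above all others. Somatic cells had 1.23, 1.66 and 1.24 CPM in the baboon and 3.98, 1.79 and 1.75 CPM in the rhesus monkey. The log2 fold change was 5.49 ± 0.54 in the baboon (adjusted p = 0.00192, edgeR), and 5.71 ± 0.65 for the rhesus monkey (adjusted p = 9.3e-04, edgeR). Cells with DND1 UMIs made up 41.1% of baboon and 43.6% of rhesus germ cells, against 0.467% and 0.855% of endothelial cells. After thinning to 1000 UMIs DND1 remained in 9.63% of baboon and 13.9% of rhesus germ cells and in 0.137% and 0.266% of somatic cells.

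PUM2, the PUMILIO partner and a broadly expressed gene, did not pass the test between the classes. On simulated data with 200 changed genes, that test found 3.5% (baboon) and 5.5% (rhesus monkey) of those with a log2 change of 2. In the measured data 1435 and 3103 genes passed, which makes the adjustment less strict. The simulated shares therefore do not give the power for PUM2. Not passing does not show that PUM2 was at the same level in both classes. PUM2 stood at 41.6, 40.9 and 72.3 CPM in germ cells of 1A, 1B and baboon 2 against 61.1, 58.8 and 57.5 CPM in somatic cells. In rhesus 1, 2A and 2B it stood at 59.2, 49.2 and 71.9 CPM against 48.0, 93.1 and 97.6 CPM. By CPM, germ cells were lower in 1A, 1B, 2A and 2B and higher in baboon 2 and rhesus 1. The fold changes also carry the TMM scaling of edgeR, which CPM do not, so CPM and fold change need not share a direction. The log2 fold change was -0.42 ± 0.45 in the baboon (adjusted p = 0.642, edgeR), and -0.73 ± 0.37 for the rhesus monkey (adjusted p = 0.182, edgeR). Without the germ cells that held 3 Sertoli genes, it was -1.40 in the baboon (adjusted p = 0.0282, edgeR), and with libraries as samples -0.81 in the rhesus monkey (adjusted p = 0.0384, edgeR). PUM2 thus passed in 1 of 12 alternatives with a test in each species. The rhesus pass took libraries 2A and 2B of the same animal as separate samples, which are not independent replicates.

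**Figure D2:**
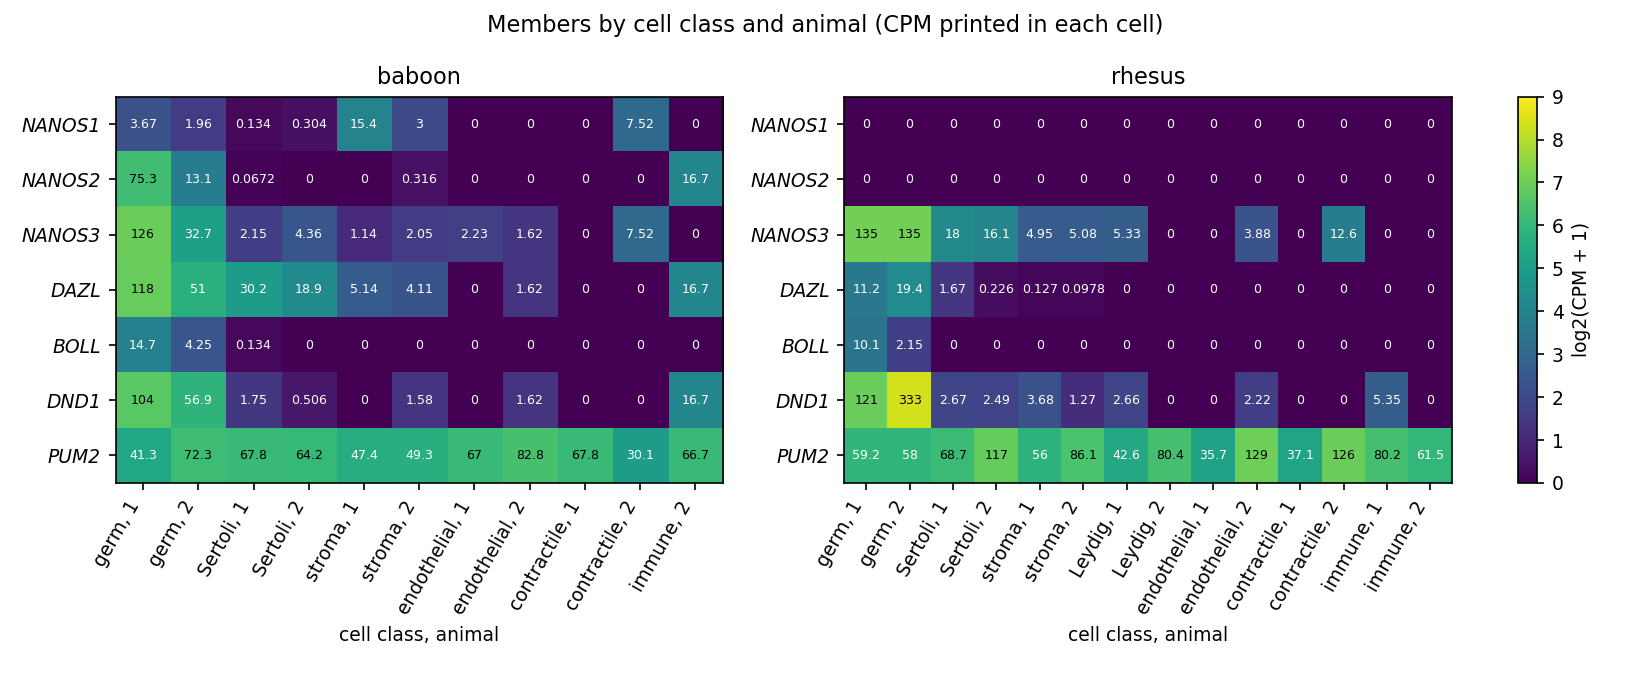
Level of each member in the summed cells of each class and animal, as log2(CPM + 1) in colour and as CPM in the printed number; classes with fewer than 10 cells in an animal are left out. BOLL is at or below 0.134 CPM in the other classes shown, the 16.7 CPM of NANOS2, DAZL and DND1 in immune cells of baboon 2 stand for 1 UMI each, DAZL reaches 30.2 and 18.9 CPM in Sertoli-gated cells of the baboons, and PUM2 lies between 30.1 and 129 CPM in every class shown.

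The contractile and immune values above 5 CPM of NANOS1, NANOS2, NANOS3, DAZL and DND1 in baboon 2 came from 1 UMI each. For PUM2 the order of the classes was not shared by the animals, with endothelial cells highest in baboon 2 and rhesus 2 (82.8 and 129 CPM) and Sertoli-gated cells highest among classes of over 100 cells in rhesus 1 (68.7 CPM). PUM2 was higher in Sertoli-gated than in stroma-gated cells in baboon 1 (ratio 1.43, 1.14 to 1.81), baboon 2 (1.30, 1.14 to 1.497), rhesus 1 (1.23, 1.04 to 1.45) and rhesus 2 (1.36, 1.22 to 1.52), by counting intervals alone.

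Against Sertoli-gated cells, which share the tubule with germ cells, 4 members were higher in the baboon, where 11.6% of 14712 genes were higher and 0.0136% lower, and 3 in the rhesus monkey, where 33.3% of 10080 genes differed, 18.9% higher and 14.4% lower. The difference came to a log2 fold change of 9.15 ± 1.22 for NANOS2, 4.22 ± 0.70 for NANOS3, 6.17 ± 1.18 for BOLL and 5.67 ± 0.69 for DND1 in the baboon, with edgeR adjusted p of 0.00549, 0.00939, 0.0139 and 0.00397. For the rhesus monkey it was 2.79 ± 0.31 for NANOS3, 3.80 ± 0.95 for DAZL and 6.25 ± 0.60 for DND1, with edgeR adjusted p of 0.00145, 0.0188 and 0.00102. NANOS1, NANOS2, BOLL and DND1 in the baboon and DAZL and DND1 in the rhesus monkey passed the filter on low counts here through their germ cell sums. For them only a higher level in germ cells could be called. DAZL in the baboon had 1.38 ± 0.50 (adjusted p = 0.144, 0.00432 with the animal as a block and 0.0167 with at least 3 gate genes, edgeR), and NANOS1 3.22 ± 0.96 (adjusted p = 0.0776, and 0.0254 with the block, edgeR). DAZL did not pass without library 1A or 1B (adjusted p = 0.259 and 0.118, edgeR). BOLL lost its call without library 1A (5.62, adjusted p = 0.0533, edgeR). PUM2 had -0.52 ± 0.44 in the baboon (adjusted p = 0.495, edgeR), and -0.82 ± 0.28 for the rhesus monkey (adjusted p = 0.057, edgeR), where it passed with at least 3 gate genes (-1.06, adjusted p = 0.0283, edgeR) and without library 2B (-0.94, adjusted p = 0.0453, edgeR).

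**Figure D3:**
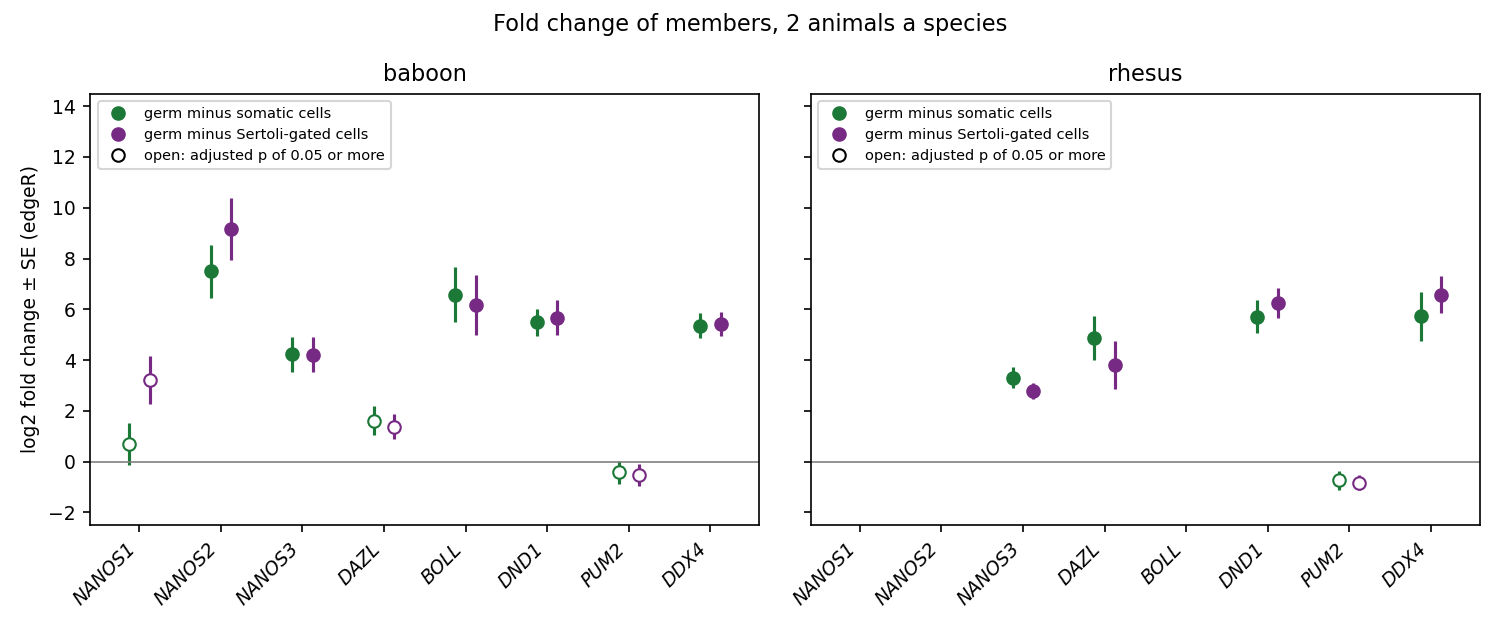
Log2 fold change of each member and of DDX4 between germ cells and all somatic cells (green) or Sertoli-gated cells (purple), with the standard error of edgeR over the sums of 2 animals; filled points have an adjusted p under 0.05. NANOS3 and DND1 are filled in both species and both comparisons, and members that did not pass the filter on low counts have no point.

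The levels in baboon germ cells moved with the number of gate genes detected. From the 116 cells with 2 gate genes to the 43 cells with 4, NANOS2 went from 5.81 to 108 CPM, NANOS3 from 12.2 to 170, DAZL from 19.01 to 119, BOLL from 0.528 to 12.7 and DND1 from 9.51 to 121 CPM, while PUM2 went from 85.0 to 33.9 CPM. Above that the members parted, since NANOS2 was at 19.8 and 23.4 CPM and NANOS3 at 75.8 and 70.3 CPM in cells with 5 and 6 gate genes, with DAZL at 148 and 116 CPM and DND1 at 108 and 144 CPM. The rhesus cells differed from this, with NANOS3 at 161 CPM and DND1 at 169 CPM in the 93 cells with 2 gate genes and at 61.7 and 228 CPM in the 44 cells with 3, and at 189.5 and 163 CPM in the 24 cells with 4. At least 3 Sertoli genes were detected in 75.9%, 36.7%, 23.3%, 38.1% and 35.9% of baboon cells with 2, 3, 4, 5 and 6 gate genes, and their part in these levels was not tested. Among germ cells with at least 3 gate genes, NANOS2 stood at 78.4 and 29.7 CPM, NANOS3 at 140 and 64.7, DAZL at 136 and 93.7, BOLL at 16.6 and 9.66, DND1 at 116 and 122 and PUM2 at 33.1 and 55.7 CPM in baboon 1 and baboon 2. In baboon 2 the ratio to somatic cells was then 104 for NANOS2 and 7.17 for DAZL, against 45.9 and 3.91 in all its germ cells. The same gate gave 90.2 and 167 CPM of NANOS3, 13.4 and 20.5 of DAZL, 123 and 337 of DND1 and 55.7 and 52.8 of PUM2 in rhesus 1 and rhesus 2, with the NANOS3 ratio of rhesus 1 at 8.09, against 12.1 in all its germ cells. Among germ cells with fewer than 3 Sertoli genes, the baboons had 124 and 48.3 CPM of NANOS2, 177 and 77.5 of NANOS3, 137 and 119 of DAZL and 129 and 176 of DND1, and the rhesus monkeys 164 and 88.7 of NANOS3, 11.2 and 17.8 of DAZL and 151 and 256 of DND1.

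**Figure D4:**
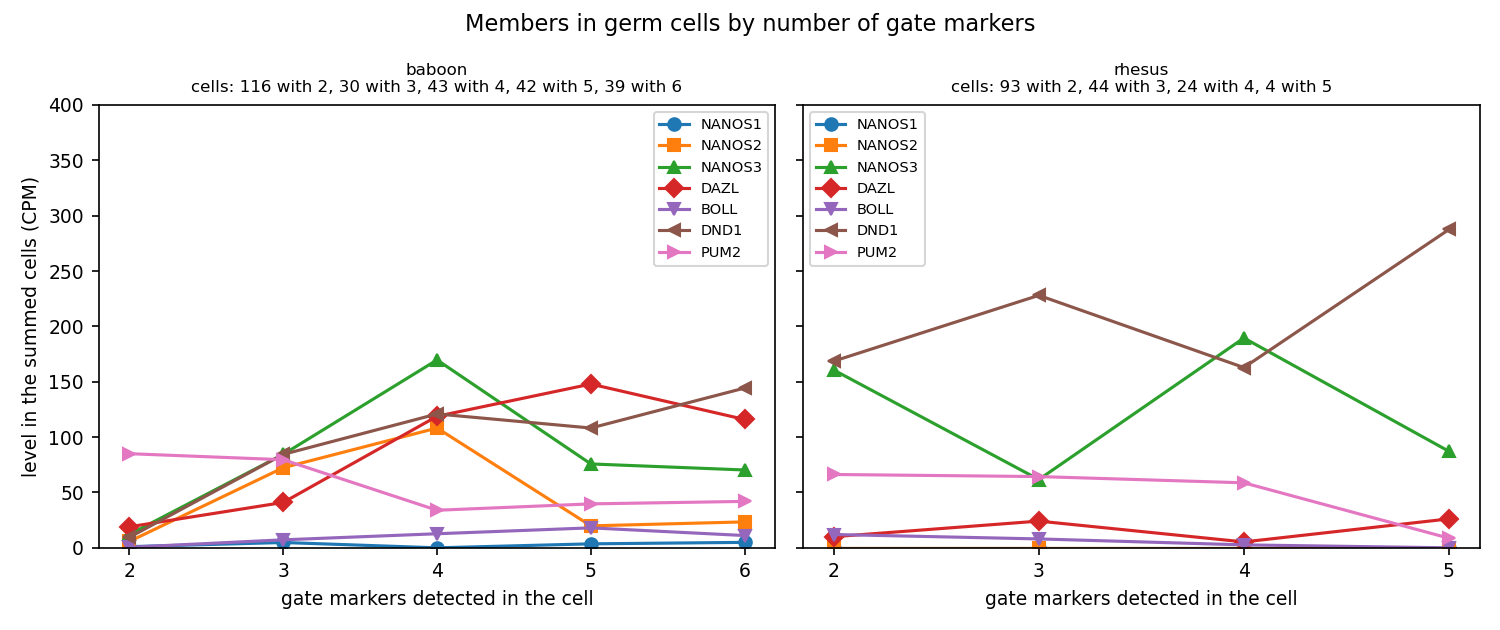
Level of each member (CPM) in the summed germ cells of a species by the number of gate genes detected in the cell, with the number of cells above each panel. In the baboon NANOS2, NANOS3, DAZL and DND1 are below 20 CPM in cells with 2 gate genes and between 41.0 and 84.4 CPM in cells with 3; the rhesus point at 5 gate genes holds 4 cells.

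Members were compared between 2 germ cell states set by lists of other genes. A germ cell was called undifferentiated when more genes of PIWIL4, FGFR3, UTF1, TSPAN33, EGR4, MSL3, GFRA1, ETV5 and ID4 were detected in it than of KIT, DMRT1, STRA8, SOHLH2, UPP1, L1TD1, MKI67 and TOP2A, and differentiating in the reverse case. UTF1 and SOHLH2 were not looked up in the rhesus monkey, where 8 and 7 genes were used. The names of the states stand for these lists only. The lists were chosen with earlier results of these data known, in which L1TD1 had been named beside NANOS3. A higher NANOS3 level in differentiating cells is therefore not independent of how the cells were sorted. This gave 76 and 109 undifferentiated and 13 and 16 differentiating cells in baboon 1 and baboon 2, and 93 and 15 against 16 and 3 in the rhesus monkeys, of which the 3 cells of rhesus 2 were left out. DMRT1 was also present in Sertoli-gated cells of the baboons at 76.0 and 74.7 CPM. At least 3 Sertoli genes were detected in 43.4% and 45.9% of undifferentiated and in 46.2% and 75.0% of differentiating cells of baboon 1 and baboon 2, and in 16.1% and 18.8% in rhesus 1, and the part of Sertoli transcripts in the states was not tested. Cells with only 2 gate genes made up 15.8% and 40.4% of undifferentiated cells of baboon 1 and baboon 2. Among differentiating cells they made up 69.2% and 62.5%, and in rhesus 1 the shares were 57.0% and 56.25%. Baboon germ cells with 2 gate genes had DND1 at 9.51 CPM and NANOS3 at 12.2 CPM. The part of this imbalance in the levels by state was not tested.

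DND1 and NANOS3 lay on opposite sides of this division in baboon 1 and rhesus 1. DND1 stood at 122 and 83.8 CPM in undifferentiated cells of baboon 1 and baboon 2 (108 and 160 UMIs) and at 30.3 and 6.88 CPM in differentiating cells (3 and 2 UMIs), a ratio of 12.2 (3.31 to 101, counting error alone) in baboon 2. The rhesus monkeys had 157 and 415 CPM in undifferentiated cells, and the 16 differentiating cells of rhesus 1 held 0 UMIs, so that it was at least 8.08-fold higher in undifferentiated cells of rhesus 1 against a floor of 3 UMIs over the class. The 3 differentiating cells of rhesus 2, left out above, held 13 DND1 UMIs, and with them the rhesus ratio was 3.67 (216 and 13 UMIs, 2.10 to 7.00 by counting error alone). NANOS3 stood at 72.6 and 34.0 CPM in undifferentiated and 404 and 55.1 CPM in differentiating cells of the baboons. Its ratio in baboon 2 was 0.618 (65 and 16 UMIs, 0.353 to 1.144 by counting error alone), an interval that includes no difference. In rhesus 1 NANOS3 stood at 59.8 and 435 CPM, and with rhesus 2 its ratio was 0.137 (60 and 97 UMIs, 0.0973 to 0.190 by counting error alone). In rhesus 1, 12 of 16 differentiating and 12 of 93 undifferentiated cells held NANOS3 UMIs, while in baboon 1 a single differentiating cell held 25 of 40 UMIs.

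In the baboon no gene passed edgeR's test between the states (0 of 8427 genes, or 0%, with 407 at an unadjusted p under 0.05 and 3 called by DESeq2), and DND1 and NANOS3 had log2 fold changes of 2.89 ± 0.74 and -1.94 ± 0.82 (undifferentiated minus differentiating), both at an adjusted p of 0.913. With the animal as a block, 392 genes passed, among them DND1 (2.87 ± 0.56, adjusted p = 3.5e-04, edgeR) and NANOS3 (-1.62 ± 0.36, adjusted p = 0.00221, edgeR). The differentiating sums held 3 and 2 DND1 UMIs and could not have carried DND1 through the filter on low counts. The direction of its call is therefore partly set by the filter. NANOS3 stood at 0.08 with libraries as samples and at 0.07 without library 1A. Both fits kept a single differentiating sum, that of baboon 2. Libraries 1A and 1B held 9 and 4 differentiating cells, under the minimum of 10 cells in a sum. These 2 values therefore leave out the differentiating cells of baboon 1 and are no check of the difference. On 2 undifferentiated sums and 1 differentiating sum of the rhesus monkey, 1.5% of 5550 genes passed (0.541% higher and 0.955% lower in undifferentiated cells). This fit rests on a single differentiating sum, assumed to vary like the other sums, and with the animal as a block no spread was left to test against. NANOS3 had a log2 fold change of -2.51 ± 0.50 there, and DND1 is given above as a bound. Neither passed with DESeq2. DND1 had 0 UMIs in the single differentiating sum, so it passed the filter on low counts through its undifferentiated sums alone. For it only a higher level in undifferentiated cells could be called. DAZL had 128 and 58.6 CPM in undifferentiated against 60.6 and 44.7 CPM in differentiating baboon cells and did not pass (0.92 ± 0.59, adjusted p = 0.913, edgeR). NANOS2 changed order between the animals, with 79.4 against 20.2 CPM in baboon 1 (70 and 2 UMIs) and 15.7 against 27.5 CPM in baboon 2 (30 and 8 UMIs). All 29 BOLL UMIs of baboon cells in these states were in undifferentiated cells, where the floor of differentiating cells (30.3 and 10.3 CPM) lay above the BOLL level, so that a difference was not detectable at this depth.

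**Figure D5:**
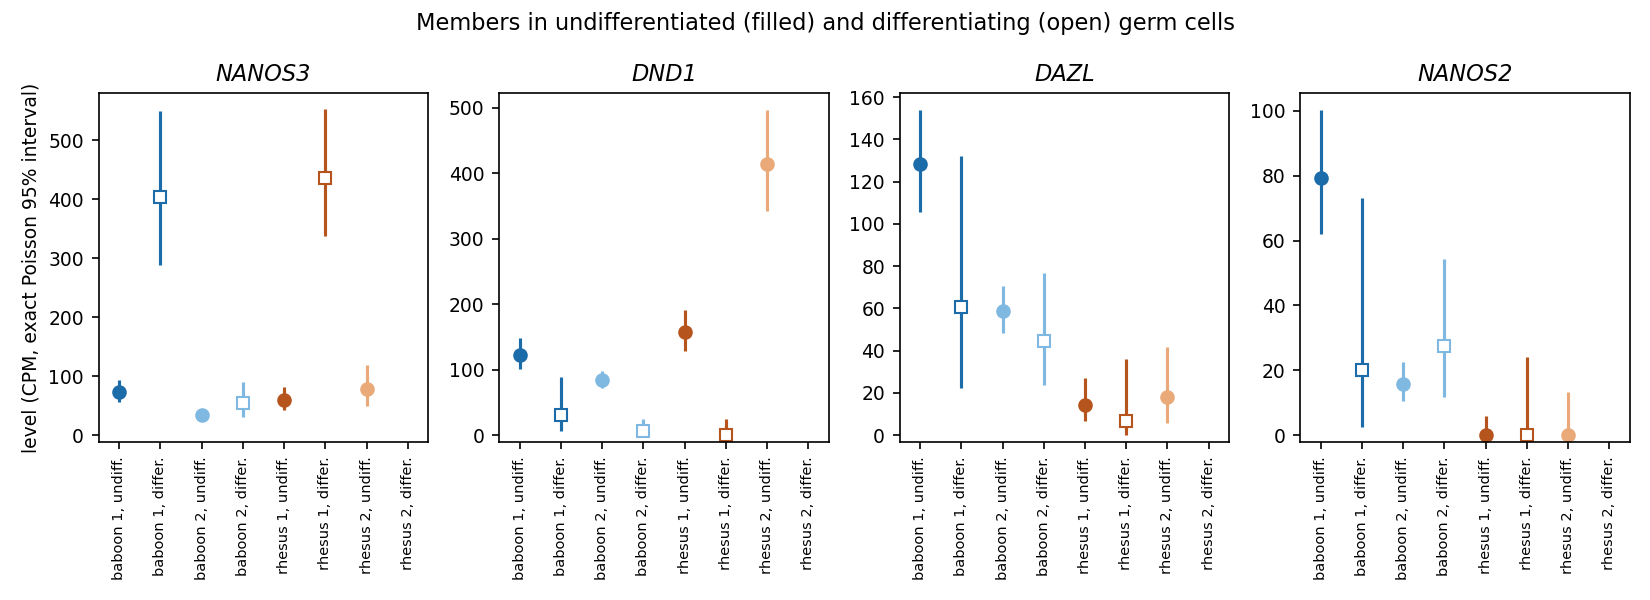
Level (CPM) of 4 members in undifferentiated (filled) and differentiating (open) germ cells of each animal, with exact Poisson 95% intervals for counting error; rhesus 2 had 3 differentiating cells and has no open point. NANOS3 is higher in differentiating cells of baboon 1 and rhesus 1 (404 and 435 CPM), DND1 is higher in undifferentiated cells of baboon 1, baboon 2 and rhesus 1, and NANOS2 is at 0 in the rhesus monkey.

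Germ cells differed in how many members they held. Of 270 baboon germ cells 82 held 1 member, 75 held 2, 51 held 3, 29 held 4, 4 held 5 and 1 held 6, while 28 held none. Of 165 rhesus germ cells, where NANOS1 and NANOS2 were at 0, 66 held 1 member, 33 held 2, 15 held 3 and 4 held 4, while 47 held none. NANOS2 and NANOS3 UMIs were found together in 21 of the 30 NANOS2 cells of baboon 1 (70.0%, or 53.9% of NANOS3 cells) and in 5 of the 14 of baboon 2 (35.7%, or 12.5% of NANOS3 cells). BOLL cells held DND1 in 20 of 27 cases (74.1%, or 18.0% of DND1 cells) and DAZL in 16 of 27 (59.3%, or 12.1% of DAZL cells). In rhesus 2 all 11 NANOS3 cells also held DND1, while in rhesus 1 this was 6 of 31 (19.4%, or 12.2% of DND1 cells). DND1 cells also made up a larger share of all germ cells in rhesus 2 than in rhesus 1. The median depth of germ cells was 15039.5 UMIs in rhesus 2 and 4613 in rhesus 1, and its part in this contrast was not tested. PIWIL4, an undifferentiated gene, was found in 61 of the 111 DND1 cells of the baboon (55.0%, or 78.2% of PIWIL4 cells) and in 16 of the 79 NANOS3 cells (20.3%, or 20.5% of PIWIL4 cells). Cells with more UMIs hold more of every gene, and the median depth in baboon 1 was 12638 UMIs in cells with NANOS3 and 9009 in cells without, so these counts are a description.

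The machinery with which NANOS proteins act was compared in the same way from a list of 19 genes of the CCR4-NOT complex, its cofactors and other deadenylases. In the baboon 0 of 19 passed the test between germ and somatic cells, where 8.72% of all genes did. The median log2 fold change was -0.33 beside -0.12 over all genes. At an unadjusted p under 0.05 stood BTG1 (-1.44 ± 0.45) and CNOT11 (1.47 ± 0.55), where 3451 of all 16450 genes tested stood. On simulated data with 200 changed genes this test found 3.5% of those with a log2 change of 2. In the measured data 1435 genes passed, so that share does not give the power for these genes. A gene that did not pass may still differ. Of the 19 genes, 18 were tested in the rhesus monkey. Of those 3 were higher and 2 lower, where 12.2% and 11.6% of all genes were, with a median of -0.60 beside -0.14. The higher ones were the complex subunits CNOT10 (1.45 ± 0.37), CNOT3 (1.27 ± 0.35) and CNOT11 (1.36 ± 0.39), with edgeR adjusted p of 0.0204, 0.0265 and 0.0327. The lower ones were the antiproliferative cofactors BTG1 (-2.67 ± 0.53) and BTG2 (-2.38 ± 0.69), with edgeR adjusted p of 0.00725 and 0.0327.

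Of a list of 18 partners and other germline RNA-binding proteins, 5 of 15 tested were higher in baboon germ cells and none lower, where 7.67% and 1.05% of all genes were (median log2 fold change 1.85 beside -0.12). In rhesus germ cells 6 of 16 were higher and 1 lower, where 12.2% and 11.6% of all genes were (median 0.74 beside -0.14). These genes went through the same filter on low counts as the members. Whether any passed it through germ cell sums alone was not checked, and for such a gene only a higher level there could be called. RBM46, which acts in meiotic entry, rose by 7.90 ± 0.65 in the baboon, and 3.83 ± 0.60 for the rhesus monkey (adjusted p = 0.00154 and 0.00286, edgeR). ELAVL2 rose by 7.31 ± 0.78 and 5.57 ± 0.62 (adjusted p = 0.00247 and 9.2e-04, edgeR), and IGF2BP1, which stabilises its target transcripts, by 7.49 ± 0.86 and 6.56 ± 1.00 (adjusted p = 0.00332 and 0.00263, edgeR). CPEB1, a regulator of cytoplasmic polyadenylation, passed in the baboon (5.14 ± 0.69, adjusted p = 0.00565, edgeR) and had -0.97 ± 0.45 in the rhesus monkey (adjusted p = 0.143, edgeR). LIN28B, which blocks the maturation of let-7 microRNAs, passed in the rhesus monkey (5.95 ± 0.97, adjusted p = 0.00333, edgeR) and had 2.04 ± 1.22 in the baboon (adjusted p = 0.388, edgeR), and PABPC4, a poly(A)-binding protein, had 2.03 ± 0.38 (adjusted p = 0.00566, edgeR) and 1.84 ± 0.56 (adjusted p = 0.0932, edgeR). Lower in rhesus germ cells was CELF1 (-1.13 ± 0.36, adjusted p = 0.0483, edgeR).

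The genes whose levels over classes and animals were most like those of a member are given with Pearson's r of log2(CPM + 1) over 11 sums in the baboon, and 14 for the rhesus monkey, as a description, since sums of an animal share their libraries. For NANOS2 these were DCAF4L2 and IGFBPL1 (r = 0.988 each), LOC108580461 (0.986), XAGE5 (0.982) and TMEM155 (0.979). For NANOS3 in the baboon they were E2F1 (0.986), RAN (0.977), DCUN1D5 (0.968), SET (0.964) and PSMD6 (0.963), and in the rhesus monkey SFMBT1 (0.968), TFDP2 (0.952), LCLAT1 (0.949), MEAF6 (0.948) and TSACC (0.946). DND1 in the rhesus monkey was nearest to TKTL1 (0.961), BRI3BP and DPEP3 (0.960 each), DDX25 (0.955) and TLE6 (0.953), and in the baboon to LOC101026809 (0.987), LOC101020929 (0.981), XAGE5 (0.979), LOC101015128 (0.975) and GZMM (0.975). For DAZL in the baboon they were ATP6V0C (0.980), LANCL2 (0.968), MRPL37 (0.962), RER1 (0.961) and AGA (0.960). For PUM2 they were SLC27A4 (0.941), ZBTB40 (0.936), PNP (0.931), VAMP8 (0.92) and CNOT6 (0.897) in the baboon and AHCTF1 (0.899), USP6NL (0.886), CTIF (0.864) and ASH1L (0.863), beside 1 gene without a symbol, in the rhesus monkey. BOLL is near 0 outside the 2 germ cell sums of the baboon, and the 5 genes nearest to it all had r = 1.000, so the measure does not rank them.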

How the data were processed

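Single-cell RNA-seq of testis cells was made from 2 baboons and 2 rhesus monkeys in 6 libraries. Reads were mapped by the authors to Panubis1.0 or Mmul_10 (Cell Ranger 3.1.0), and what was deposited are raw UMI counts per gene and barcode for all barcodes, without normalization or cell calling. Seurat 3.2.3 is also named in the submitters' processing notes, and its output was not used here.

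Cells had at least 1000 UMIs and 200 detected genes, and doublets were kept. Of the symbols of the gate, MAGEB2 was not looked up in the rhesus monkey, so 5 genes remained there. Somatic cells were gated to a type when at least 3 genes of its list were detected and their UMIs were over 2 times those of every other list. Counts were summed per animal and class (2 animals a species, whose libraries were summed), and tested with edgeR 4.0.16 (R 4.3.3; quasi-likelihood test, TMM, filterByExpr, Benjamini-Hochberg adjustment over all genes tested, threshold 0.05). DESeq2 1.42.0 was an alternative. Levels are CPM with exact Poisson intervals, and shares have Clopper-Pearson intervals, at 95%, which cover counting error only, and a floor is 3 counts. Levels and their ratios are scaled to the UMIs of the class without TMM, so they can differ in size from the fold changes of edgeR. Shares were also taken after thinning each cell to 1000 UMIs. Scripts ran in Python 3.11.15 with numpy 2.4.6, scipy 1.17.1 and pandas 2.3.3, and the tests were tested on simulated data. Germ and other sums come from the same animals, and their deviations between animals correlated across genes with r = 0.238 to 0.674, so the value with the animal as a block stands beside a result where it changed the call.

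The named genes are the 7 members, DDX4, the genes of 2 pathway lists with up to 6 of each named by p in each species, and the 5 genes most like each member with at least 20 germ cell UMIs. A gene of the lists is not reported here. The members and the lists were chosen with earlier results of these data known. Alternatives were another normalization, no filter on low counts, other UMI minimums, a stricter gate, libraries as samples, the block and leaving out each library. Libraries as samples treat libraries of the same animal as independent, which they are not.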

Additional observations from a re-analysis of the deposited data

Results flagged for a closer look

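Cells with exactly 1 gate gene entered no comparison, and 3 members had a higher CPM there than in somatic cells of both animals of a species, with counting intervals that did not overlap. PUM2 stood at 91.7 CPM (84.3 to 99.6) in the 1617 such cells of baboon 1 and at 81.0 CPM (77.0 to 85.1) in the 1485 of baboon 2, against 60.2 and 57.5 CPM in somatic cells, and at 107.6 CPM in rhesus 1 and 157 CPM in rhesus 2, against 48.0 and 95.3 CPM. These were also above the PUM2 level of germ cells, which was 41.3, 72.3, 59.2 and 58.0 CPM in baboon 1, baboon 2, rhesus 1 and rhesus 2. NANOS3 stood at 18.8 CPM (13.2 to 25.9) in the 505 such cells of rhesus 1 and at 15.9 CPM (9.97 to 24.1) in the 514 of rhesus 2, against 11.2 and 7.92 CPM in somatic cells. DND1 stood at 25.9 CPM (19.3 to 34.0) and 11.6 CPM (6.62 to 18.8) in the same cells, against 3.98 and 1.77 CPM. In the baboon 93.4% of these cells had TEX15 as the gate gene, and in the rhesus monkey 75.0%. Their median depth was 4371.5 and 2349 UMIs, against 1989 and 1608 in somatic cells, and the part of depth was not tested. No group held 4 or more animals, so single samples were not checked as outliers.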

How the results depend on the processing

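Of 406 values computed under an alternative, 313 values of single genes or shares and 31 counts of genes kept their direction and side of the threshold or stayed close to the main value, 21 and 19 moved, 15 passed the threshold newly, 3 lost it and 4 changed sign. In the baboon, 1435 genes differed between germ and somatic cells, and the count was 2292 with DESeq2, 3055 without the filter, 3585 with libraries as samples, 4051 with at least 3 gate genes, 4915 without germ cells with 3 Sertoli genes and 3984 with TEX15 left out of the gate, which was chosen after seeing the data. The share of higher genes was 87.9% and fell to 59.6%, 49.0% and 60.3% in the last 3. Against Sertoli-gated cells 1707 genes differed, and 4012 with the animal as a replicate block or 5029 with at least 3 gate genes, the latter added after seeing the data, and the share of higher genes was 99.9%, 69.3% and 59.4% in turn. Between the baboon states 0 genes differed, and 3 with DESeq2, 18 without the filter and 392 with the animal as a replicate block. In the rhesus monkey 3103 genes differed between germ and somatic cells, 4683 with the animal as a replicate block and 4879 with libraries as samples. Between the rhesus states 83 differed, 7 with DESeq2, all lower in undifferentiated cells, 52 with libraries as samples, 44 without the filter and 29 without germ cells with 3 Sertoli genes, and the block left no spread to test against. The cause was not tested.

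Leaving out 1 library at a time gave 990 to 1250 (germ against somatic) and 1168 to 1496 (against Sertoli-gated) in the baboon, 2427 to 2722 and 2738 to 2947 in the rhesus monkey, and 0 to 5 between the baboon states. Between the rhesus states, leaving out library 2B gave the same sums as libraries as samples, so the 2 are not separate alternatives. The 5 undifferentiated cells of 2B were too few for a sum of their own. No test was possible without rhesus 1 or 2A. Without baboon 2 or rhesus 1, 1 animal was left, and its values have no test. Against all somatic cells NANOS2, NANOS3, BOLL and DND1 in the baboon and NANOS3, DAZL and DND1 in the rhesus monkey passed in all 12 alternatives with a test. The 4 changes of sign in values with a test were between states, for NANOS3 in the baboon (0.08 with libraries as samples, and -2.49 to 0.07 over the libraries left out, highest without 1A, against -1.94), PUM2 in the rhesus monkey (-0.08 with DESeq2, against 0.01) and DDX4 in the rhesus monkey (-0.34 with TEX15 left out, against 0.23). DDX4 there was also at -0.20 with the block and -0.21 without library 2A, with no test. The baboon fits with NANOS3 at 0.08 and 0.07 kept a single differentiating sum, that of baboon 2. The replicate block changed no other call of a member than those given above. With 2 animals a species, of which the baboons differ in chemistry, p-values rest on a spread between sums that edgeR moderates over all genes. Without the block they take no account of sums that come from the same animal. Rhesus 2 had 28 germ cells, and a BOLL level below their floor was not detectable.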
